A study of Mus musculus with 6 samples.

Results

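Intergenic FXR binding sites that lay more than 20 kb and up to 100 kb from the transcription start site (TSS) of their assigned gene numbered 2912 of 20040 peaks in Bcl6fl/fl liver (WT list) and 1811 of 12495 peaks in Bcl6LKO liver (LKO list). They made up 14.5% of each list. Members were chosen from the deposited annotation alone: the peak had to be annotated as intergenic, and the absolute distance to the TSS had to exceed 20000 bp and not exceed 100000 bp. No tag value entered that choice. At the lower limit, the nearest WT peaks outside and inside lay at 19997 and 20038 bp, and at the upper limit they lay at 99899 bp (inside) and 100102 bp (outside). In the LKO list these distances were 19999, 20043, 99837 and 100212 bp.

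Bile acids activate FXR, a ligand-dependent transcription factor of the nuclear receptor family. It pairs with RXR on DNA, most often at an inverted repeat of the hexamer AGGTCA with a single base between the hexamers, called IR1. BCL6 is a zinc finger repressor that recruits corepressors to DNA. In liver, many nuclear receptor sites lie far from promoters, at enhancers that can contact a promoter over a distance, so the nearest gene is only a label of position and need not be the gene that a site controls.

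All mice were males on a C57BL/6 background and carried floxed Bcl6 alleles. WT mice (Bcl6fl/fl) had no Cre, and LKO mice carried the Alb-cre transgene, which the albumin promoter drives in hepatocytes. Ages are not given in the sources used here, and deletion of Bcl6 cannot be read from FXR tags. From each genotype came 2 ChIP libraries made with an FXR antibody and 1 input, and the peaks of a genotype were called by the authors on its pooled libraries. The ChIP libraries held 19022618 and 2883717 tags in WT and 21287263 and 22637613 tags in LKO, so that WT replicate 2 was the shallowest. Because peaks were called on pools, a count of peaks has no replicate error. The 95% intervals below (Wilson for a share, Newcombe for a difference of shares) reflect only how many peaks were counted, not how mice vary. Nothing states that the 2 libraries of a genotype came from separate mice.

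The strongest members were examined for the FXR element. Among the 10 matched pairs with the highest WT level and low input, 4 held an IR1 in which no more than 2 of the 12 half-site bases were mismatched. Their whole WT peaks are shown because each joins a high FXR level with an IR1 match. Sequences are from the plus strand of the RefSeq GRCm38.p6 assembly, whose coordinates are those of mm10, with the IR1 match in capitals.
4921525O09Rik, chr13:52022038-52022248: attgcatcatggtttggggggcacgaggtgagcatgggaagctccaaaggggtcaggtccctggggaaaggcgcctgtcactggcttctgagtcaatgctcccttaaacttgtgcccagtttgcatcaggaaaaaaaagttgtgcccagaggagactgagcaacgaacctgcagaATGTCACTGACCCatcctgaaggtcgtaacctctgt
Nol4l, chr2:153554598-153554808: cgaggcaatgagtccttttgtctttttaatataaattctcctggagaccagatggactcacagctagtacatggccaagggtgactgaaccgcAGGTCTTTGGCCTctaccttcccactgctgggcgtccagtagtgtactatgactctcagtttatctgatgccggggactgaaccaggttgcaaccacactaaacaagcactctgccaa
Il1r1, chr1:40179604-40179814: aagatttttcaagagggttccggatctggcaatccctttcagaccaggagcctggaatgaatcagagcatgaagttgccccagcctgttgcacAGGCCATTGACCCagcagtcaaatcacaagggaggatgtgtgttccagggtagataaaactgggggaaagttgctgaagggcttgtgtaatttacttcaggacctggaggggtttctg
Lmo4, chr3:144264599-144264809: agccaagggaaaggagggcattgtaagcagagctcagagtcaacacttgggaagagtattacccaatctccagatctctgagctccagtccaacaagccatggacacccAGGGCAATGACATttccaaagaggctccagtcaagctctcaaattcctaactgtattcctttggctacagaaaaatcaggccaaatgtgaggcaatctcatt
The match lay 6 bp from the peak centre at Nol4l and Il1r1 and 10 bp away at Lmo4, against 76 bp at 4921525O09Rik. Mismatch-free sites were rare, with 5 WT and 5 LKO members that held one. They belonged to 6 places in the genome, shown here as the base sequences closest to the consensus, with both half-sites and the spacer in capitals.
Cnn3, chr3:121378828-121378840: AGGTCAGTGACCT
Herc1, chr9:66293493-66293505: AGGTCACTGACCT
Gm30173, chr3:52554714-52554726: AGGTCATTGACCT
Hspa13, chr16:75787683-75787695: AGGTCATTGACCT
Mpp6, chr6:50052485-50052497: AGGTCATTGACCT
Plk2, chr13:110457772-110457784: AGGTCAATGACCT
The sites at Cnn3, Herc1, Gm30173 and Hspa13 lay in peaks of both lists, the Mpp6 site lay in a WT-only peak and the Plk2 site in an LKO-only peak.

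The values per library are the deposited log2 tags. To set the lists side by side, each library was centred on its own median over all 9918 peaks that overlapped between the lists by at least 1 bp (matched pairs), so that 0 is the median matched peak of that library. The tables were normalized separately, and with 2 libraries against 2 an exact two-sided permutation test cannot go below 0.33, so that differences between genotypes are given as descriptions with no test. The strong site that carries a perfect IR1 near Cnn3, a gene for an actin-binding calponin, stood at 2.38 and 2.72 in the WT libraries and at 3.23 and 3.34 in the LKO libraries. At Herc1, the WT values were 1.51 and 1.51 and the LKO values 1.78 and 2.18. At Gm30173 they were -0.58 and -1.16 in WT against 0.037 and 0.41 in LKO. At Hspa13 they were -2.04 and -1.77 against -1.43 and -1.16. In all 4 of these matched pairs, both LKO libraries lay above both WT libraries after centring, as they did in 29.8% of all 9918 matched pairs. Of the 251 matched WT members with an IR1 of at most 2 mismatches, 111 stood higher in this way. Without centring, the libraries at Cnn3, Herc1 and Hspa13 overlapped.

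IR1 was the letters AGGTCA, any base, then the reverse complement of AGGTCA, on either strand, searched within 100 bp of the peak centre. It was found in 356 of 2912 WT members (12.2%, 95% interval 11.1 to 13.5%) and in 312 of 1811 LKO members (17.2%, 15.6 to 19.0%). Windows of the same length 2 kb away on either side held it in 0.738% (0.549 to 0.993%) and 0.773% (0.535 to 1.12%). The share was 16.6 times the window share in WT and 22.3 times in LKO. Against all other peaks of the list, the members differed by 0.461 points in WT (-0.781 to 1.79) and by 1.17 points in LKO (-0.647 to 3.10), so that a difference in either direction of these sizes was not resolved. The match sat close to the summit: the median distance to the peak centre was 15 bp in WT and 13 bp in LKO, and 71.9% and 73.7% of matches lay within 25 bp.

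Other liver motifs were searched on both strands in the same windows. The single half-site AGGTCA, which is also contained in IR1 and in the direct repeat with a 1-base spacer (DR1), was present in 40.8% of WT members (39.0 to 42.6%) against 12.7% of windows 2 kb away. DR1, the usual site of HNF4A and of PPARA with RXR, with the same limit of 2 mismatches, was present in 379 of 2912 WT members (95% interval 11.8 to 14.3%) against 3.19% of windows. The C/EBP letters TTGCNNAA were found in 19.0% of WT members and 17.3% of LKO members. They were 2.82 points more frequent than in all other WT peaks (1.33 to 4.39) and 2.40 points more frequent than in all other LKO peaks (0.594 to 4.33). Against intergenic peaks within 20 kb of a TSS, the C/EBP difference was 0.607 points in WT (-1.39 to 2.60) and 0.377 points in LKO (-2.10 to 2.85). The FOXA letters TGTTTAC were present in 7.45% of WT and 8.12% of LKO members against 3.13% and 3.06% of windows. The letters TTCNNNGAA, shared by STAT proteins and BCL6, were present in 7.90% of WT members and 7.62% of LKO members. They exceeded the windows by 1.18 points in WT (0.0416 to 2.39) and by 0.883 points in LKO (-0.542 to 2.41). Against all other peaks of the list, they were more frequent by 1.56 points in WT (0.566 to 2.66) and by 1.44 points in LKO (0.214 to 2.83), and against intergenic peaks within 20 kb the difference was 0.967 points in WT (-0.377 to 2.31). A match is a run of letters and not a measured site of the factor.

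**Figure D1:**
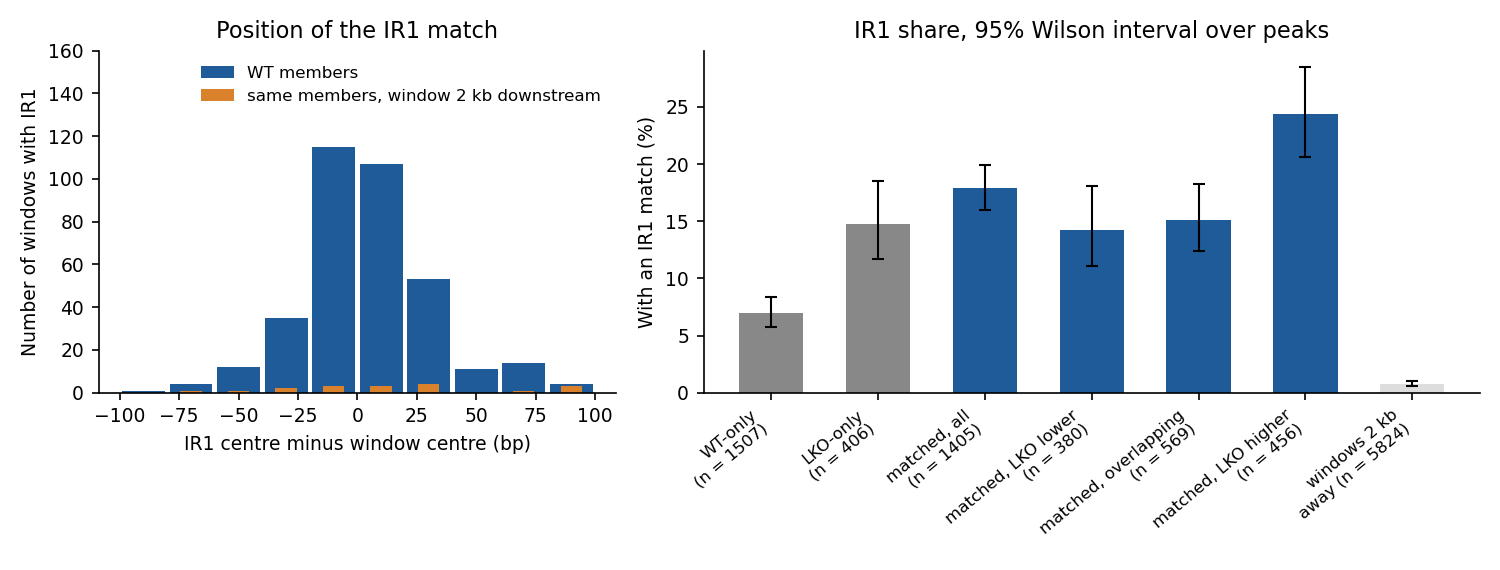
Left, number of WT members with an IR1 match by the distance of its centre from the peak centre in bp, in 20-bp bins, with windows 2 kb downstream of the same members for comparison. Right, percent of WT-only, LKO-only and matched members with an IR1 match, the matched ones also by direction, with 95% Wilson intervals over peaks. Matches gathered at the centre, and the share ran from 6.97% in WT-only members to 24.3% in matched members that stood higher in LKO.

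The median level of distal intergenic sites lay slightly under that of all other peaks of their list. The median member stood at 4.29 log2 tags in WT replicate 1 and 4.87 in WT replicate 2, and differed by -0.060 and -0.047 from the median of the other peaks. In LKO the medians were 4.83 and 4.64, with differences of -0.049 and -0.042. Both libraries of each genotype went the same way, and the SD of the 2 differences was 0.0091 in WT and 0.0050 in LKO. The 2 libraries were read over the same peaks, so this SD does not measure how precise the shift is. Member values spread far wider, with quartiles of 3.65 and 5.04 in WT replicate 1. Members differed from promoter peaks by -0.24 and -0.22 in the WT libraries and by -0.17 and -0.20 in the LKO libraries. Intron peaks, the largest class, stood at 4.29 and 4.88 in WT and 4.84 and 4.64 in LKO, close to the members, and intergenic peaks beyond 100 kb stood lower, with members differing from them by 0.085 and 0.021 in WT and by 0.023 and 0.0049 in LKO. From these values and the library totals, about 38.7 and 8.76 tags per median member were estimated for replicates 1 and 2 of WT and 35.7 and 33.3 for those of LKO, against 0.550 and 0.399 in the inputs. The replicates correlated across members at Pearson's r = 0.847 in WT and 0.888 in LKO, over 2912 and 1811 peaks of the same libraries, which are not independent replicates.

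Where the members lay depended on the annotation. They were upstream of the assigned TSS in 60.8% of WT cases (59.0 to 62.6%) and 59.4% of LKO cases (57.1 to 61.7%), and the median distance was 41221 and 40945 bp. They thinned out with distance: 1410 WT members lay between 20 and 40 kb, 704 between 40 and 60 kb, 479 between 60 and 80 kb and 319 between 80 and 100 kb. The LKO counts were 881, 431, 294 and 205. How much intergenic sequence lies at each distance was not counted, so these counts are no result about FXR binding. The assigned gene was protein-coding for 77.9% of WT members (76.3 to 79.3%), 8.98 points fewer than for the other peaks (interval of the difference -10.6 to -7.43). In the GENCODE vM21 annotation, the centre of 577 WT members (19.8%, 18.4 to 21.3%) lay inside an annotated gene, 235 of them in a protein-coding gene and 317 in a long noncoding RNA gene with no protein-coding gene over it. By the same annotation, 53.5% of WT members (51.7 to 55.3%) and 53.5% of LKO members (51.1 to 55.7%) had some GENCODE TSS within 20 kb, and the median distance to a protein-coding TSS was 39720.5 and 40232 bp. The label intergenic thus belongs to the annotation that the authors used.

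Annotated repeats covered the centre of 686 WT members (23.6%, 22.1 to 25.1%) and 361 LKO members (19.9%, 18.2 to 21.8%). Against the other intergenic peaks of the list, the difference was -1.20 points in WT (-3.21 to 0.839) and -0.947 points in LKO (-3.37 to 1.51). LTR elements were the most frequent class, with 272 WT and 143 LKO members. They were followed by SINE elements (196 and 100) and LINE elements (119 and 68). WT members in LTR elements were weak, with medians of 3.97 and 4.68 log2 tags against 4.35 and 4.89 in members with no repeat. They were also matched less often, at 38.6% (33.0 to 44.5%) against 50.9% (48.8 to 52.9%). The WT shares were 38.8% in SINE, 36.7% in DNA and 45.4% (36.7 to 54.3%) in LINE elements. In LKO, 73.4% of LTR members (65.6 to 79.98%) and 77.5% of members with no repeat (75.3 to 79.6%) were matched. The LKO shares were 79.0% in SINE, 85.3% in LINE and 75.9% in DNA elements. Members clustered less than intergenic peaks near genes: 49.3% of WT members had another FXR peak within 10 kb, against 60.7% of intergenic peaks within 20 kb of a TSS and 35.8% of those beyond 100 kb. The assigned gene also had a promoter peak for 14.8% of WT members (13.5 to 16.1%) and 10.2% of LKO members (8.85 to 11.6%).

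Whether the same distal sites were called with and without BCL6 was read from overlap. The lists shared 1405 member pairs, and every matched pair with a member in either list had a member in both. They made up 48.2% of WT members (46.4 to 50.1%) and 77.6% of LKO members (75.6 to 79.4%). The other 1507 WT members were WT-only, and 406 LKO members were LKO-only. Against all other peaks of the list, the matched share differed by -1.45 points in WT (-3.41 to 0.511) and by -2.10 points in LKO (-4.21 to -0.0829). Against intergenic peaks within 20 kb of a TSS, the difference was -0.817 points in WT (-3.37 to 1.74), and in LKO it was -5.45 points (-8.06 to -2.84), from 83.0% to 77.6%. Against intergenic peaks beyond 100 kb, the members were matched more often, by 3.36 points in WT (0.0128 to 6.67) and 3.63 points in LKO (0.00713 to 7.41). Beside intergenic peaks within 20 kb of a TSS, LKO members had the lower matched share in each of 5 strength classes. From the weakest class up, the shares were 53.0% against 60.1%, 71.2% against 77.3% and 79.3% against 86.0%. They were 90.0% against 93.0% in the fourth class and 97.5% against 98.6% in the strongest. The intervals of the single shares overlapped in every class, with 48.0 to 58.0% against 54.9 to 65.1% in the weakest. Such overlap does not test a difference, and no interval of the difference was made within a class. All other LKO peaks lay nearer to the members, at 55.7% in the weakest class and 97.3% in the strongest. WT members did not show that order beside intergenic peaks within 20 kb, and had the higher share in every class but the strongest. From the weakest class up, their shares were 13.7% against 13.1%, 24.9% against 22.3% and 45.3% against 42.6%. The fourth class had 71.3% against 68.6%, and the strongest 92.8% against 94.3%. The matched share did not follow distance in order: the WT shares were 49.3%, 45.7%, 49.7% and 47.0% from the nearest to the farthest of the 4 distance classes, and the LKO shares were 78.9%, 74.5%, 81.6% and 72.7%.

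**Figure D2:**
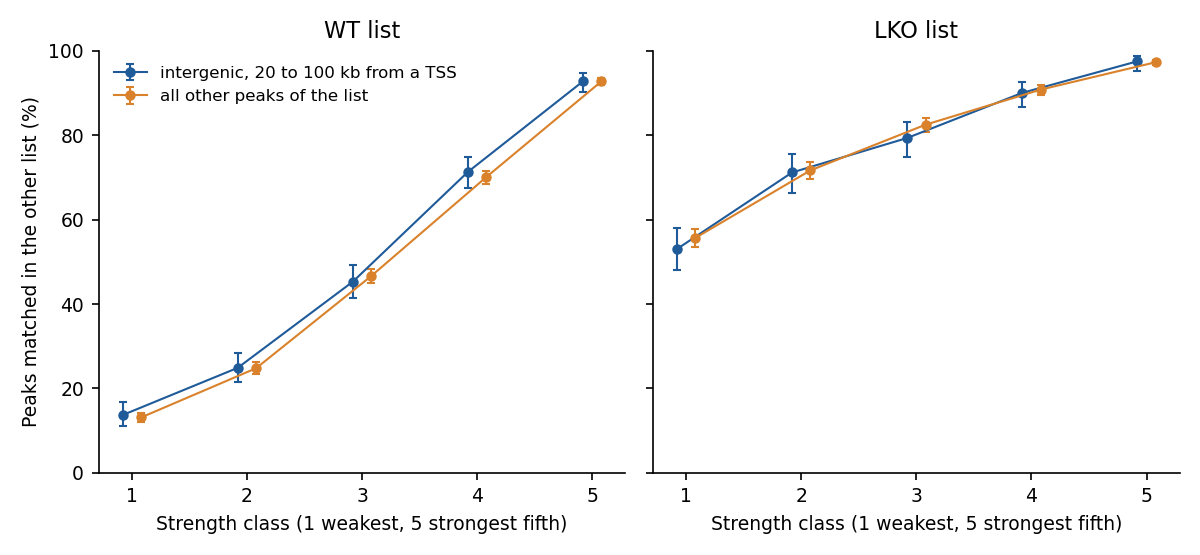
Percent of peaks matched in the other list (y axis) by strength class of the own list (x axis, 5 equal classes of the mean log2 tags of the 2 ChIP libraries), for members and for all other peaks, with 95% Wilson intervals over peaks. In WT the members rose from 13.7% to 92.8% and in LKO from 53.0% to 97.5%, and the other peaks ran close to them.

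Sites found in WT alone were weak, repeat-rich and poor in IR1. WT-only members had medians of 3.79 and 4.43 log2 tags against 4.94 and 5.50 in matched WT members. Their IR1 share was 6.97% (5.79 to 8.37%) against 17.9% of the 1405 matched members, a difference of 10.9 points (8.53 to 13.3). At like strength, the matched members exceeded the WT-only members by 7.32 points (2.14 to 13.9) in the second class of 5, by 6.38 points (1.39 to 11.6) in the third and by 6.51 points (0.531 to 11.4) in the fourth. In the weakest and the strongest class the interval of the difference included 0. WT-only members lay in a repeat in 27.4% of cases against 19.4% (difference of matched minus WT-only -7.97 points, -11.0 to -4.90). LKO-only members were weaker than matched ones too, at 4.32 and 4.17 against 5.03 and 4.81, but their IR1 share of 14.8% (11.7 to 18.6%) differed by 3.16 points from that of matched LKO members, with an interval of -1.08 to 6.92 that included 0. Their repeat share differed by 0.296 points (-4.31 to 4.48).

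The 3 strongest WT-only members with low input were those assigned to Mir101c, Grik3 and Ehd3. The Mir101c site (chr9:3006725-3006935) lay in a GSAT_MM satellite repeat that was soft-masked over 100% of its length, and it stood at 6.97 and 8.38 log2 tags with an input of 0.028. Grik3, a kainate receptor gene, had a site 53556 bp upstream at 6.41 and 6.53, with an IR1 of 1 mismatch. The site 38356 bp from the TSS of Ehd3, a gene of endocytic recycling, stood at 6.22 and 6.40, also with an IR1 of 1 mismatch. The 3 strongest LKO-only members were assigned to Fgd2 (7.13 and 6.93), Sult3a2, a sulfotransferase gene (6.68 and 6.67), and 2210417A02Rik (6.73 and 6.17). Each of the LKO-only sites held an IR1 of 2 mismatches.

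At matched sites the levels of the genotypes ran together, with Pearson's r = 0.801 and Spearman's rho = 0.744 over the 1405 pairs, as a description. The median LKO minus WT difference of the centred levels was 0.04, against 0.02 over all other matched pairs, and the SD over pairs was 0.63. The median pooled SD of the replicates was 0.25. Both LKO libraries lay above both WT libraries at 456 pairs (32.5%), against 29.8% over all 9918 matched pairs. Both lay below at 380 pairs (27.0%), against 25.2%. Both shares were near the background. By more than 1 log2 unit, 99 pairs stood higher (7.05%) and 55 lower (3.91%), against 6.55% and 2.62% of all matched pairs. Which direction was the more frequent depended on the scaling: with each library centred on its own list, 10.5% stood higher and 56.2% lower, without centring 15.7% and 37.0%, and with at least 10 estimated tags in all 4 libraries 21.6% and 37.7%. Sorted by WT level, 91.5% of the 82 pairs in the weakest WT class stood higher in LKO and 0% lower, against 84.7% and 0% of all 529 matched pairs of that class. In the strongest class, 23.4% of 488 pairs stood higher and 42.0% lower, against 21.8% and 39.2% of all 3718. The WT value that sorts the pairs is also the one subtracted, and a pair had to be called in both lists to be counted, so that this order is in part set by the construction and is no result about the genotypes.

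**Figure D3:**
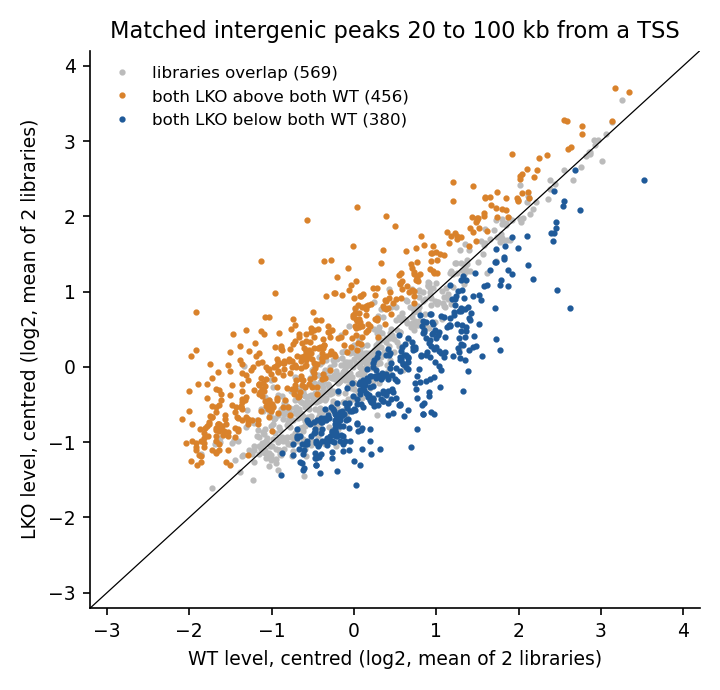
Centred level of each of the 1405 matched members in WT (x axis) and LKO (y axis), log2, mean of 2 libraries, with the line of equality. Orange, 456 pairs with both LKO libraries above both WT libraries. Blue, 380 pairs with both below. Grey, 569 pairs whose libraries overlapped. Orange points dominate at the low WT end.

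Pairs that stood higher in LKO held IR1 more often than pairs that stood lower. The share was 24.3% (20.6 to 28.5%) in the 456 higher pairs and 14.2% (11.1 to 18.1%) in the 380 lower pairs, a difference of 10.1 points (4.77 to 15.3), which was 4.87 points with each library centred on its own list. Pairs with overlapping libraries had 15.1% (12.4 to 18.3%). Within WT strength classes the difference was 8.16 points (-7.71 to 20.5) in the third class, 20.3 points (9.68 to 31.3) in the fourth and 21.5 points (11.3 to 31.8) in the strongest. The 2 weakest classes held no lower pair. Within a WT class, the call sorts pairs by their LKO level. The IR1 share of LKO members rose with that level, from 8.40% in the weakest LKO class to 33.75% in the strongest. The WT classes thus do not hold strength fixed, and the part of strength in this difference was not tested. Over all classes, the difference of higher minus lower pairs among all other matched pairs was 14.1 points (11.96 to 16.3), so that it was not particular to distal intergenic sites. The repeat share of higher and lower pairs differed by -1.10 points (-6.77 to 4.48). Higher pairs were shallower in WT, with a median of 8.88 estimated tags in WT replicate 2 against 19.6 in lower pairs, and the part of depth in this difference was not tested.

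Among the 10 strongest pairs, 3 had both LKO libraries above both WT libraries, 1 had both below, and 6 overlapped, beside 29.8% above and 25.2% below among all matched pairs. The strongest site was assigned to the noncoding gene 4921525O09Rik, 74598 bp upstream of its TSS, with Gadd45g and Diras2 as the flanking protein-coding genes of GENCODE. It stood at 3.12 and 3.93 in WT and at 2.49 and 2.47 in LKO, which is -1.05 on average, with 0.40 as the pooled SD. The site of 9430078K24Rik, 114032 bp from the TSS of Zfp36l1, a gene for an mRNA decay protein, stood at 3.11 and 3.57 in WT and 3.60 and 3.71 in LKO. At Nol4l, the values were 3.07 and 3.28 against 3.57 and 3.83, a difference of 0.53 with a pooled SD of 0.17. At Lmo4, a LIM-domain transcriptional adaptor, they were 3.04 and 3.22 against 3.24 and 3.30, a difference of 0.14 with a pooled SD of 0.095. Without centring, the libraries at 9430078K24Rik, Nol4l and Lmo4 overlapped, and those at 4921525O09Rik did not. The site 45371 bp upstream of Il1r1, the interleukin 1 receptor, stood at 2.99 and 3.28 in WT and 3.16 and 3.35 in LKO, which overlap. The Ttpal site lay between Ttpal and Hnf4a, a master nuclear receptor of hepatocytes whose TSS was 30378 bp away, and it stood at 2.70 and 3.05 against 2.78 and 2.92. The sites of Hsd17b6, a steroid dehydrogenase gene, Twist2, 4930431P22Rik and Coq8a, a gene of coenzyme Q synthesis, also overlapped between genotypes, with differences from -0.27 to 0.053. The site of Hsd17b6 lay in a B1 SINE and was soft-masked over 75.8% of its length.

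**Figure D4:**
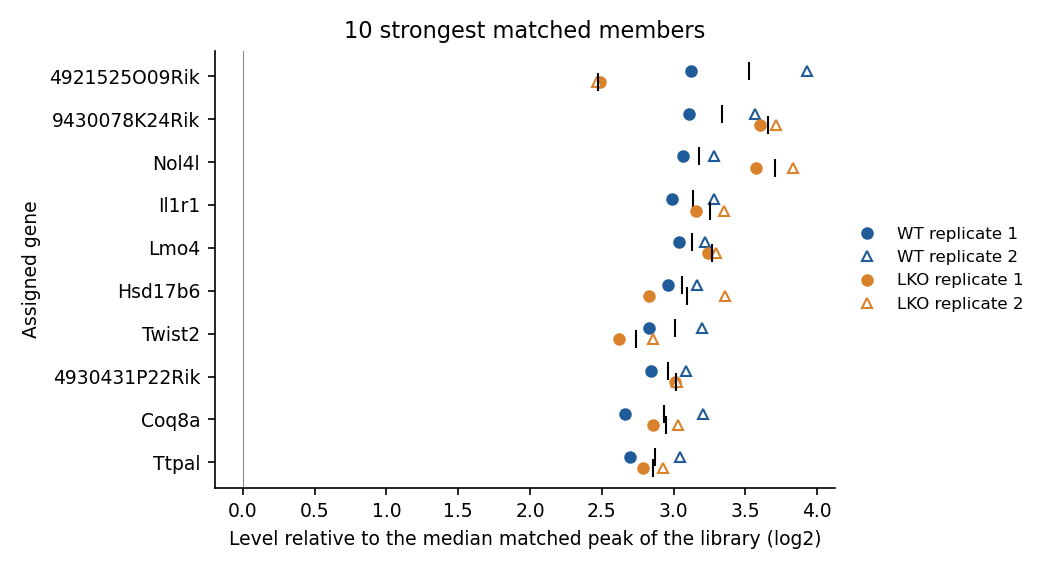
Centred log2 level (x axis) of the 10 strongest matched members, named by assigned gene, in each ChIP library. Circles and triangles are replicates 1 and 2, and the bar is their mean. Only 4921525O09Rik had both LKO libraries below both WT libraries, at 2.49 and 2.47 against 3.12 and 3.93.

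The 6 pairs with the largest rise in LKO had centred differences from 2.09 to 2.65. The site of 1700092K14Rik, 109725 bp from the TSS of Sdk2, was the most even, at 0.0067 and 0.072 in WT and 2.13 and 2.13 in LKO, with an IR1 of 1 mismatch. The Gm35978 site lay 16845 bp from the GENCODE TSS of Notch1, a receptor of cell fate signalling, and stood at -1.78 and -2.06 in WT and 0.58 and 0.88 in LKO. The Axin2 site, 21998 bp upstream of this feedback inhibitor of Wnt signalling, stood at -0.90 and -2.92 in WT and 0.49 and -0.033 in LKO, with only 1.83 estimated tags in WT replicate 2. The site of 0610040F04Rik lay 43174 bp from Bhlhe40, a circadian repressor, and stood at -1.52 and -2.44 against 0.43 and -0.12. Over these 6 sites the estimated tags in WT replicate 2 ran from 1.83 to 14.6. Gm5294 and 9930014A18Rik completed the group.

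The 6 pairs with the largest fall had centred differences from -1.84 to -1.59, and all 4 libraries of each carried at least 10.6 estimated tags. The 4930547E08Rik site, which lay between Caprin1 and Lmo2, was among the strongest in WT, at 2.74 and 2.51, and stood at 0.93 and 0.63 in LKO. The site 26934 bp from the TSS of Snai1, a repressor of epithelial genes, stood at 0.52 and 0.85 in WT and -1.04 and -1.07 in LKO. At Tmem33 the values were 1.06 and 0.88 against -0.89 and -0.36, at Ccdc112 1.17 and 1.49 against -0.28 and -0.35, and at Fras1 0.064 and -0.020 against -1.97 and -1.18. The Gse1 site was intergenic in the deposited annotation but lay inside Gse1 in GENCODE, at 0.81 and 0.72 against -0.78 and -0.86.

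**Figure D5:**
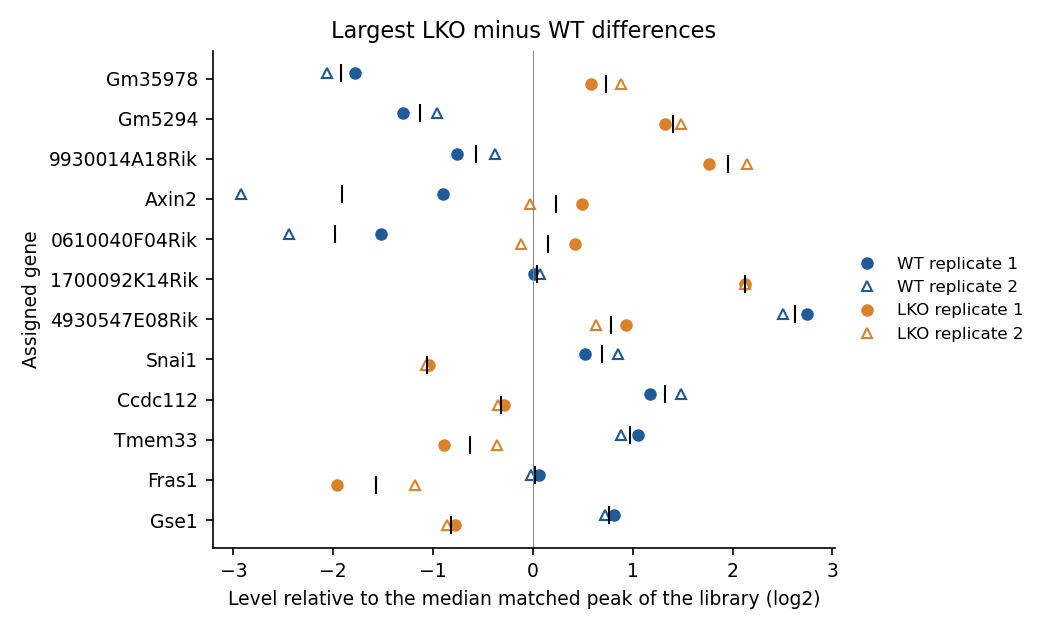
Centred log2 level (x axis) of the 6 matched members with the largest rise and the 6 with the largest fall in LKO, by assigned gene, in each ChIP library. Circles and triangles are replicates 1 and 2, and the bar is their mean. The WT replicates of Axin2 lie apart, at -0.90 and -2.92.

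Some genes gathered many distal sites. WT members were assigned to 1690 genes, of which 1049 had a single member, and 1053 genes had a member in both lists (62.3% of the WT genes and 85.8% of the LKO genes). The most WT members, 10 each, were assigned to 4921525O09Rik, Dusp6, Ptpn1 and Sik1. The sites of Dusp6, which encodes an ERK phosphatase, spanned 148 kb, with 4 LKO members and 3 matched pairs, and 7 of its WT members lay inside GENCODE genes. Those of Ptpn1, which encodes a phosphatase of the insulin receptor, all lay upstream within 53.6 kb of each other, with 4 matched pairs of which 1 stood higher in LKO. Sik1, a kinase that restrains CREB coactivators in gluconeogenesis, had 6 matched pairs, 2 higher and 1 lower in LKO. At 4921525O09Rik, 4 of 5 matched pairs stood lower in LKO and none higher, with differences from -1.53 to -0.0087. Over all matched pairs, 29.8% stood higher and 25.2% lower, and the sites of 1 gene lie close together. A530013C23Rik followed with 9 WT members and 5 matched pairs, 1 higher and 1 lower.

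Of 30 genes of bile acid handling and FXR action, 7 held 14 WT members and 4 held 7 LKO members. All 7 LKO members were matched. One pair stood higher and 3 lower in LKO, with a median difference of -0.11 against 0.04 over all 1405 pairs. The share over all matched pairs was 29.8% higher and 25.2% lower. Cyp7a1, the rate-limiting enzyme of bile acid synthesis, had a matched site 32646 bp downstream of its TSS at -0.90 and -0.81 in WT and -0.29 and -0.78 in LKO, and 2 WT-only sites beside it. The site 38434 bp upstream of Slco1b2, a hepatic bile acid and anion uptake carrier, stood at 0.85 and 1.24 in WT and at -0.50 and -0.023 in LKO (difference -1.31). Rxra, the partner of FXR, had 4 matched sites, of which 2 stood lower (differences of -0.74 and -0.53) and 2 differed by 0.018 and -0.014. The site of Abcb4, the phospholipid export pump of the canaliculus, overlapped at 1.13 and 1.54 against 1.42 and 1.04. Baat, Nr1h4 (the FXR gene) and Slc10a2 had WT-only members alone, where 1507 of all 2912 WT members were WT-only.

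Lipid and lipoprotein genes held 15 WT members at 5 of 33 genes and 11 LKO members at 7 genes. Of 8 matched pairs, 2 stood higher and 1 lower, beside 29.8% and 25.2% of all matched pairs. Insig1, a brake on sterol regulatory element binding protein processing, had 4 matched sites with differences from -0.33 to 0.75. The pair of sites downstream of Scarb1, the HDL receptor, and the site upstream of Apob overlapped between genotypes.

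Glucose and insulin genes held 16 WT members at 7 of 18 genes and 9 LKO members at 5 genes, all 9 matched, with 2 higher and 5 lower, beside 29.8% and 25.2% of all matched pairs. Ppp1r3b, which directs glycogen synthesis in liver, had 4 matched sites that all stood lower in LKO, with differences of -0.75, -0.32, -0.45 and -0.79. The farthest of them had a WT input of 2.31 log2 tags, above the 95th percentile of 1.85. The strong Fbp1 site, 20084 bp upstream of this gluconeogenic enzyme, stood at 1.76 and 1.68 in WT and 1.67 and 1.48 in LKO, so that the libraries only just did not overlap. The Irs2 site stood at -1.71 and -1.24 in WT and 1.24 higher on average in LKO.

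Genes of liver transcription factors and nuclear receptors held 23 WT members at 11 of 35 genes and 15 LKO members at 10 genes, with 13 matched pairs of which 2 stood higher and 5 lower, beside 29.8% and 25.2% of all matched pairs. The higher pairs were those of Nr3c1, the glucocorticoid receptor (difference 0.82), and Pparg, the adipogenic nuclear receptor (difference 0.86). Prox1, a hepatocyte identity factor, had a site at 1.31 and 1.09 in WT and 0.37 and -0.083 in LKO (difference -1.05). Klf9, a glucocorticoid-responsive factor, had 2 sites lower, by -0.64 and -0.54. A further matched Klf9 site overlapped (difference -0.19), and another was WT-only. The site with -0.54 had inputs of 1.89 in WT and 3.39 in LKO, above the 95th percentiles of 1.85 and 2.49. The 2 sites of Nr5a2, the nuclear receptor that drives Cyp7a1, overlapped, at 1.85 and 1.93 against 1.74 and 2.21 for the nearer one, whose inputs of 2.33 and 2.52 also passed those limits. The 3 WT-only and 2 LKO-only members of Foxa2, the pioneer factor, did not match each other.

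Of the plasma protein genes, Alb had 3 matched sites that all stood higher in LKO, at -1.01 and -1.41 against -0.025 and -0.60 for the farthest, -0.96 and -1.18 against 0.019 and -0.013 for the next and 1.47 and 1.03 against 1.69 and 1.79 for the nearest, 21467 bp upstream. The farthest and the next stood at 4.12 and 4.35 log2 tags in WT replicate 2, under the median member at 4.87. Alb also had a WT-only member. The Alb-cre transgene carries albumin regulatory sequence in LKO mice only, and its part in the Alb values was not tested. The matched site of Serpina1a overlapped between genotypes (difference -0.13). Plasma protein genes thus held 4 matched pairs, of which 3 stood higher and 0 lower, beside 29.8% and 25.2% of all matched pairs. The site of Tef, a clock-controlled PAR bZIP factor, overlapped, at 2.06 and 2.14 in WT and 2.12 and 2.26 in LKO. Ghr, the growth hormone receptor, had 3 WT-only members and no LKO member, where 1507 of all 2912 WT members were WT-only.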

How the data were processed

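Peak tables of FXR binding in livers of WT and LKO males were used, with 2 ChIP libraries and 1 input per genotype. Per the submitters' processing notes, the authors used Bowtie 1.2, HOMER 4.10 and mm10. HOMER called peaks on pooled ChIP libraries against input, and kept those that its differential routine, run over the replicates, found enriched over input. The deposited values per library are log2 tags, taken as regularized log2 values because they are not whole and some are negative. The transform shrinks low values, and the tables were scaled separately. The deposited Peak Score is a signal of pooled tags, and the deposited focus ratio is a fraction, and neither is printed. The authors' fold change and p-value columns, which compare ChIP with input, were not used.

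Peaks were matched by at least 1 bp. Low input means at or under the 95th percentile of the list (1.85 and 2.49 log2 tags). Estimated tags are 2 to the power of the log2 value, scaled by the library total over the mean total of the table. Strength was the mean of the ChIP values, in 5 equal classes of the list. All 20040 WT and 12495 LKO peaks lay inside the assembly, and deposited distances were reproducible from its RefSeq transcripts, to 2 bp, for 93.5% and 93.6% of the members with a listed transcript. The members, the 7 gene lists (165 genes) and the rule for named peaks were chosen with earlier results of these data known. Named peaks were those assigned to listed genes, the 10 strongest matched pairs with low input, the 5 genes with most WT members, the 6 largest differences each way among low-input pairs without overlap of the libraries, and the 3 strongest WT-only and LKO-only members with low input. The labels do not say whether replicate numbers pair samples. Over 1405 pairs, the same-number deviations correlated at 0.028. That value cannot decide the question, because a correlation over pairs is blind to shifts of whole libraries. Python 3.11.15, pandas 2.3.3 and scipy 1.17.1 were used. The peak matching, the IR1 search, the Newcombe interval and the call of pairs higher in LKO were first tested on simulated data. The other statistics were not. The values of 1 listed gene are not reported here.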

Additional observations from a re-analysis of the deposited data

How the results depend on the processing

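Of 80 alternatives, 43 left a value within its limits, and the values of the others follow. The limits were the interval of a share, 1.5 times a count, or an SD. For the level of members minus other peaks, it was the SD of the 2 replicate differences. Leaving out 1 replicate cannot pass that SD, so those outcomes were fixed in advance. For the median LKO minus WT difference, it was the SD of the 4 library-pair medians. Requiring at least 10 estimated tags in both libraries, chosen after seeing the data, left 1238 WT members, and peaks at or above median strength left 1413 in WT and 886 in LKO. The matched share of WT and LKO members was 52.2% and 83.2% at or above median strength in both lists, 66.9% and 65.8% with lists of equal length, 45.0% and 72.8% under the input limit, and 75.04% and 51.4% with at least 10 estimated tags, where LKO members then had the lower share.

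The median level of members minus other peaks moved to -0.034 (WT, input limit), -0.074 (WT, against intergenic peaks within 20 kb) and -0.067 (LKO, means), and ran from -0.060 to -0.047 in WT and from -0.049 to -0.042 in LKO when 1 replicate was left out. The IR1 share was 2.34% and 3.64% at 1 mismatch and 16.8% and 23.6% at or above median strength. The repeat share was 4.46% and 2.37% for peaks soft-masked over 50% of their length, and 20.5% for strong WT members.

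The median LKO minus WT difference was -0.43 when centred on the own list, -0.29 without centring, 0.076 as a mean and -0.13 with at least 10 estimated tags in all 4 libraries. It ran from 0.0080 (without WT replicate 1) to 0.061 when 1 library was left out, so that its sign follows the scaling. The shares of pairs higher and lower in LKO were 10.5% and 56.2% centred on the own list, 15.7% and 37.0% without centring, and 21.6% and 37.7% with at least 10 estimated tags. With the replicate block, counting pairs of the same sign within both replicate numbers, they were 37.9% and 32.9%. Nothing states that samples of the same number are paired. The IR1 difference of higher minus lower pairs was 4.74 points at 1 mismatch, 4.87 points centred on the own list and 21.04 points with at least 10 estimated tags, and that of matched minus WT-only members was 2.23 points at 1 mismatch. The alternatives to these IR1 differences were also chosen after seeing the data. The cause of these changes was not tested, apart from the smaller sets that the limits leave.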
